A study of Mus musculus with 2 samples.

Results

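In mouse gastrocnemius muscle, 1198 spliced transcript structures carried at least 1 splice site that the gene annotation lacks and were read at least 2 times in each of 2 long-read libraries. A structure is called a chain here, because it is defined by its chromosome, its strand and the exact positions of all its introns. The members were the chains whose models the transcript caller TALON placed in its class for unannotated splice sites in both libraries. Models of Atp2a1, the fast-muscle calcium pump gene, were left out. The 1198 members were selected from 27815 distinct chains of that class seen in either library, and the libraries held 93941 distinct spliced chains in all.

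The tissue came from male B6CASTF1/J mice, the first-generation hybrid of a C57BL/6J and a CAST/EiJ parent, at an age of 2 months. Both libraries were made from 2 µg of total RNA of the gastrocnemius, the large calf muscle, and no treatment or other group is named. The labels number them as biological replicates 1 and 2 from differently numbered males but give both the same donor identifier, so the spread between them may be partly technical. Reads of the 2 parental alleles were not separated.

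Splicing removes introns between a donor site at the end of an exon and an acceptor site at the start of the next. Almost all introns begin with GT and end with AG, and a minority begin with GC. An exon or a shift whose length is a multiple of 3 keeps the reading frame of the protein, and skeletal muscle is known for many muscle-specific exons in genes of the contractile apparatus and of membrane traffic.

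Replicate 1 held 1182747 reads and replicate 2 held 1480977, of which 49988 and 31554 fell on spike-in RNAs. The members took 18536 and 24363 reads, which is 1.64% and 1.68% of the endogenous reads. The 8 muscle fibre markers took 152884 and 139282 CPM (reads scaled to the endogenous total of each library). The 4 leukocyte markers together had 1 and 2 reads. Other sets of 4 markers had 405 and 654 reads for fibroblasts, 188 and 151 for erythroid cells and 156 and 289 for smooth muscle. Tendon markers had 140 and 229 reads, Schwann cell markers 58 and 71 and satellite cell markers 36 and 57. Endothelial markers had 22 and 52 reads and adipocyte markers 13 and 4. Only 1 of the 4 satellite cell markers and 1 of the 4 adipocyte markers had reads in both libraries. Of the single markers, Cd68, Cd3e, Adipoq, Plin1, Lep and Pax7 had none in either library. A count of 0 allows up to 3 reads, or 2.65 and 2.07 CPM. In bulk muscle, fewer cells of a type and less RNA per cell cannot be told apart.

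The sequences below show what an annotated short exon, an unannotated site or a new exon looks like in genes whose members are described further on. The first 5 give an annotated exon that the member leaves out, in capitals, with up to 15 bases of the annotated exon on each side after splicing. Their exons lie in coding sequence at chr3:103075407-103075418 on the plus strand (Ampd1, 12 nt), chr11:75603725-75603735 on the plus strand (Pitpna, 11 nt), chr5:31614603-31614621 on the plus strand (Mrpl33, 19 nt), chr2:14044948-14044966 on the minus strand (Hacd1, 19 nt) and chr3:142311953-142311978 on the minus strand (Pdlim5, 26 nt), all on mm10.
Ampd1: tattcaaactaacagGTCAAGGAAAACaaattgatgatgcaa
Pitpna: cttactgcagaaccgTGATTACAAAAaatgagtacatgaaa
Mrpl33: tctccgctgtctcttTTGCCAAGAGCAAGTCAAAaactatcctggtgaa
Hacd1: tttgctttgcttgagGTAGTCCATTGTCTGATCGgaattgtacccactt
Pdlim5: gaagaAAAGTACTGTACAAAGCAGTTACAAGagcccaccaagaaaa

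The next set shows unannotated sites that lie inside annotated exons, in genomic order along the gene's strand. Capitals mark the GT of the new donor in Mknk2 (chr10:80676107-80676134, minus strand) and Gpt2 (chr8:85516016-85516045, plus strand), and the AG of the new acceptor in Qk (chr17:10216416-10216459, minus strand). In Gpcpd1 (chr2:132541141-132541169, minus strand) and Uso1 (chr5:92183478-92183506, plus strand) capitals mark a 21-nt exon cut out of a longer annotated exon, with 4 bases of the new introns on each side.
Mknk2: gggctgtgctagGTgaggtgacggcgct
Gpt2: gccttgcccaggagGTaggagggtggtctc
Qk: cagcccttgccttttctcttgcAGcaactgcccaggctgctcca
Gpcpd1: ccagAAAAAATTTGTGCATACACAGgttt
Uso1: gcagGGTGATAAGATCGACAGACGGgtat

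The last set shows the start of Myh4, where the most read member departs from the annotation. The first line gives the 60 bases before the RefSeq start with the motif TATAAA in capitals (chr11:67237752-67237811, plus strand). The second gives the 30 genomic bases from the RefSeq start on (chr11:67237812-67237841). Capitals there mark the GT of the unannotated donor, and the bases from that GT on belong to the new intron. The Myh4 bases are RefSeq's, on GRCm38.p6, and all others were read from GENCODE M21 transcripts.
Myh4 before the RefSeq start: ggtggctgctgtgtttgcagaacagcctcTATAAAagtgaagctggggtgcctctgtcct
Myh4 donor: gtccttcctcaaacccttaaagGTaggtat

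Reads in both libraries chose the members, so their abundance is described here and not tested. Of 3171 class chains with any read in both libraries, 1973 had 1 read in the lower library and stood just outside the minimum, with a median of 2 summed reads and a highest sum of 20. Just inside, 439 members had 2 reads in the lower library, with a median of 5 summed reads. The median member had 9 summed reads, 211 members had 10 or more in each library and the highest sum was 13574. The members made up 47.6% (Wilson 95% interval 45.7 to 49.6) of the 2517 chains of the class with 2 or more reads in replicate 1, and 34.4% (32.8 to 36.0) of the 3486 in replicate 2. By kind, the replicate 1 share ran from 31.6% for a new last exon to 58.5% for a new first exon. All intervals here cover counting error only, since the reads carry no molecular identifiers that the files report.

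The members lay in 848 annotated genes, and 1135 of them were in protein-coding genes. Each member was sorted by the kind of change. A shifted donor was the most frequent, with 346 chains, and a shifted acceptor followed with 335. A new first exon was found in 144 chains, a new internal exon in 116, a new intron inside an annotated exon in 62, a lost short exon in 44 and a new last exon in 12. Another 131 chains combined several kinds, and 8 were in no annotated gene. By reads the order was different, because the 131 combined chains held 6658 and 9850 reads through a single Myh4 structure, while the 346 shifted donors held 3831 and 4517. The 44 chains with a lost short exon held 1661 and 1943 reads, more than the 144 new first exons with 1251 and 1519.

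**Figure D1:**
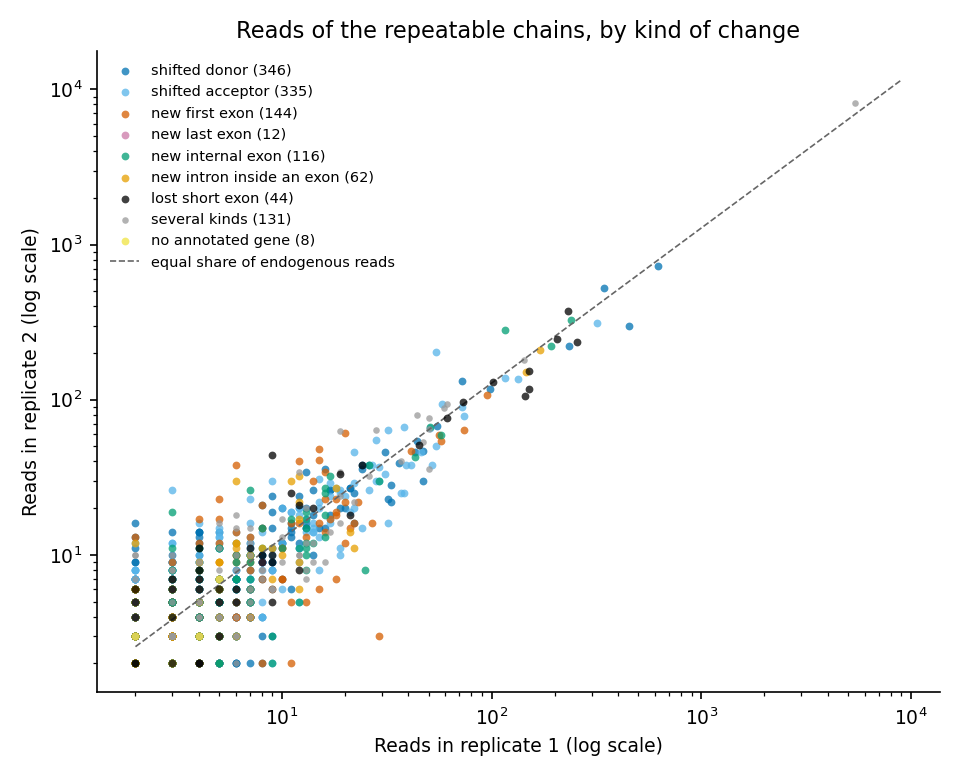
Reads of each of the 1198 members in replicate 1 (horizontal) and replicate 2 (vertical), both on log scales, with 1 point per chain coloured by kind of change and a dashed line at equal shares of the endogenous reads. The Myh4 chain at 5392 and 8182 reads stands apart at the top right, and most points lie near the lower left corner, with a median of 9 summed reads.

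Most members were minor structures of their genes. The median member took 3.40% of its gene's reads in replicate 1 and 2.92% in replicate 2, with reads that TALON calls genomic left out. Under 5% in both libraries were 656 members, while 61 took over 50% in both and 121 were the most read structure of their gene in both. By kind, the median share was 25.4% and 26.5% for a lost short exon, 6.07% and 5.09% for a new internal exon, 4.74% and 4.52% for a new first exon, 2.67% and 2.11% for a shifted donor and 2.56% and 2.30% for a shifted acceptor. Of the 121 leading structures, 25 had a new first exon, 21 combined kinds, 20 had lost a short exon, 18 had a shifted donor, 17 a new internal exon, 14 a shifted acceptor and 5 a new intron inside an exon.

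The most read member belonged to Myh4, which encodes myosin heavy chain IIb, the motor of the fastest fibres. It had 40 exons and 5392 and 8182 reads, or 33.1% (32.3 to 33.8) and 31.8% (31.2 to 32.3) of the gene's 16312 and 25771 reads, a mean of 32.4% ± 0.924 (SD, n = 2). It was the leading structure of the gene in both libraries. Annotated Myh4 transcripts took 14.7% and 20.0%, and truncated matches to them, which TALON calls incomplete splice matches, took 50.2% and 46.2%.

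The Myh4 chain differed from the annotation at its 5′ end alone. GENCODE begins the gene with a 51-nt exon at chr11:67238029-67238079, followed by a second exon at chr11:67240585-67240827. The chain placed an intron of 197 nt (chr11:67237834-67238030) in front of the last 49 nt of that first exon, and a further exon before the intron, from 304 nt upstream of the RefSeq start to 22 bases into the RefSeq transcript. Several other Myh4 members shared a model start 239 nt upstream in both libraries. Whether such model starts mark the true start of the transcript was not tested. The new intron was present in 5562 and 8419 reads, which is 89.5% and 88.6% of the 6218 and 9501 reads that used the donor of the 49-nt exon, a mean of 89.0% ± 0.593 (SD, n = 2). The hexamer TATAAA starts 31 nt before the RefSeq start, which lies inside the first exon of the chain's model. Searched on both strands in the 60 nt before the start, it is present in 3.92% of 32851 RefSeq promoters, a description and not a binding site.

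Myh4 held 13 members with 5485 and 8336 reads in all, of which 12 used the same acceptor of the 49-nt exon. The second most read of them, with 44 and 80 reads, had a first exon that ended 95 nt later, and the next had 10 and 17 reads and a first exon of only 5 nt. These are small beside the leading chain in both libraries.

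**Figure D2:**
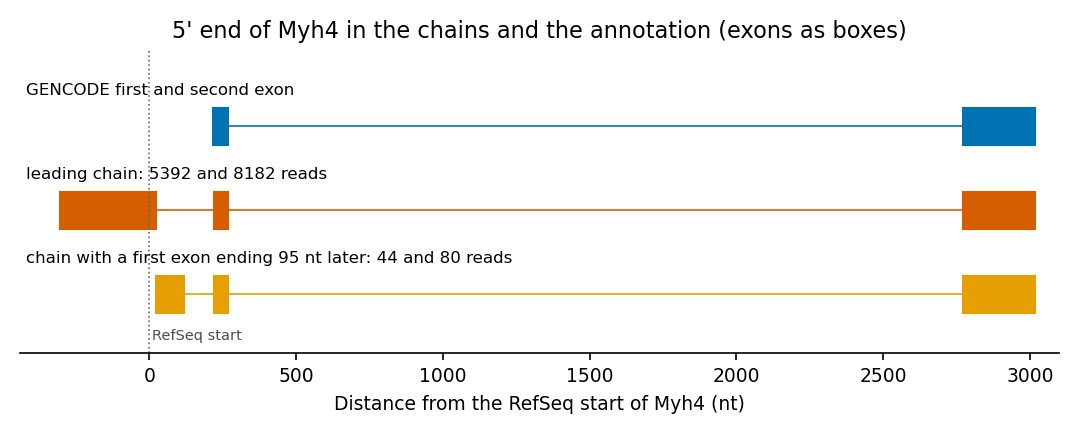
Exons (boxes) and introns (lines) at the 5′ end of Myh4 for the GENCODE transcript, the leading member (5392 and 8182 reads) and the second most read member (44 and 80 reads), plotted by distance in nt from the RefSeq start. Both members have an exon before the annotated first exon, separated from it by an intron.

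Shifted sites are unannotated ends of an exon that overlaps an annotated exon of the gene. The members held 411 distinct shifted donors and 402 distinct shifted acceptors. Donors lay downstream of the nearest annotated donor of the gene at 241 sites and upstream at 170. Acceptors lay upstream of the nearest annotated acceptor at 127 sites and downstream at 275. That nearest site can belong to another exon, so the distance need not be the change in exon length. Small shifts were frequent: 49 donors lay 4 nt downstream of the annotated donor and 14 lay 4 nt upstream. Of the acceptors, 65 lay 3 nt downstream, 32 lay 4 nt downstream, 28 lay 2 nt downstream and 16 lay 3 nt upstream, and no donor lay 3 nt downstream.

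**Figure D3:**
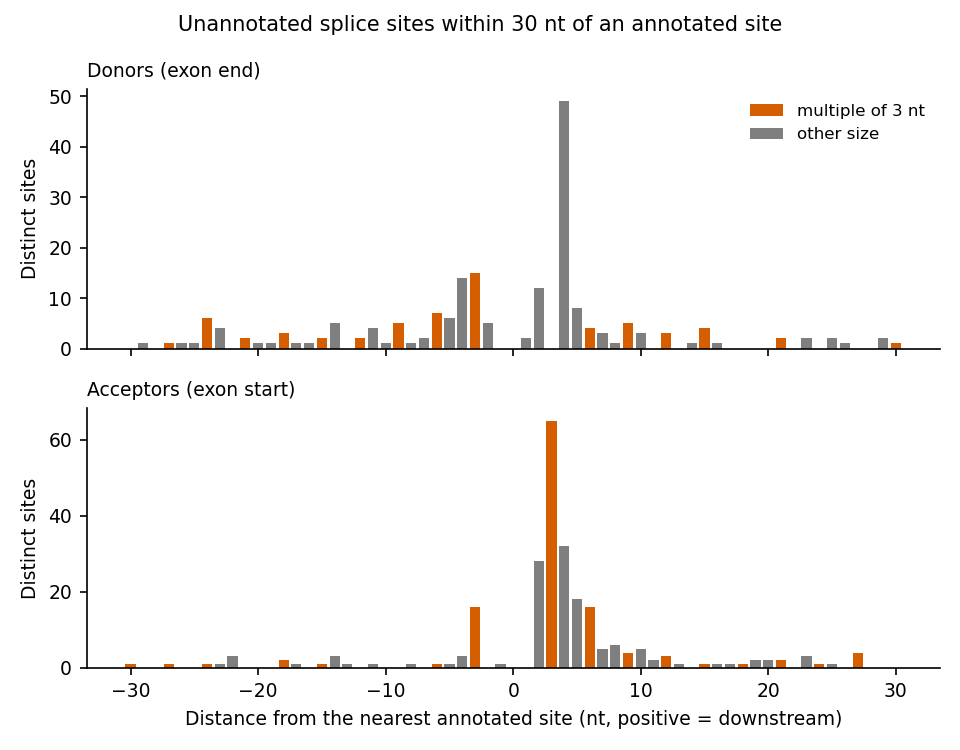
Number of distinct unannotated donors (top) and acceptors (bottom) at each distance in nt from the nearest annotated site, for distances up to 30 nt, with multiples of 3 coloured. The tallest bars are donors 4 nt downstream (49 sites) and acceptors 3 nt downstream (65 sites).

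The small shifts could be read in sequence only where an annotated exon covers both sites. At all 8 of the donors 4 nt downstream that could be read, GT stood at both positions. AG stood at both acceptors for all 15 readable shifts of 3 nt downstream, all 7 of 3 nt upstream, all 8 of 4 nt downstream and all 10 of 2 nt downstream. The 2 readable donors 4 nt upstream both lacked the pair. The bases do not say which of the adjacent sites was used. Median usage was 7.40% for the 81 acceptors moved by 3 nt in either direction, 2.83% for the 35 moved by 4 nt and 0.788% for the 63 donors moved by 4 nt.

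Frame-keeping shifts differed in share between acceptors and donors at short distances. Within 100 nt, 238 of 576 shifted sites (41.3%, 37.4 to 45.4) moved by a multiple of 3. In the coding span this held for 133 of 259 acceptors (51.4%, 45.3 to 57.4) and for 66 of 187 donors (35.3%, 28.8 to 42.4). That gap lay in coding shifts of 1 to 10 nt, with 52.7% of acceptors and 26.9% of donors, while at 11 to 100 nt the shares were 48.9% and 46.8%. Site usage, the reads at the new site as a share of those at the new and the nearest annotated site, had a median of 4.05% for coding shifts by a multiple of 3 and of 1.28% for the others. This too held for 1 to 10 nt (4.08% and 0.653%), but at 11 to 100 nt multiples of 3 had the lower median (3.68% and 5.91%), lower for acceptors (2.12% and 4.88%) and higher for donors (8.25% and 6.87%). With 1 group and sites that share genes and libraries, these shares are a description.

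Among members with a shifted donor alone, Vdac3, a voltage-dependent anion channel of the outer mitochondrial membrane, had the chain with the most reads. The chain moved a donor by 1 nt, to the end of a 54-nt exon, and had 618 and 729 reads, or 92.2% and 87.4% of the gene (mean 89.8% ± 3.41, SD, n = 2). The new donor had 632 and 751 reads over all chains, against 0 and 0 at the nearest annotated donor, so that annotated donor was not seen in either library.

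Mknk2, a kinase that phosphorylates the translation factor eIF4E, used a donor 42 nt upstream in its 5′ untranslated part, shown above. The chain had 342 and 523 reads and 52.5% and 52.4% of the gene. The new site took 361 and 592 reads against 176 and 323 at the annotated donor, a usage of 67.2% and 64.7% (mean 66.0% ± 1.79, SD, n = 2). Both libraries thus used the unannotated donor more than the annotated one.

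Tnnt3, the fast-fibre troponin T whose alternative exons tune calcium sensitivity, had 3 unannotated donors at 1 exon. They lay 4, 9 and 70 nt downstream and had 796 and 746, 277 and 244, and 536 and 384 reads, against 17 and 27 at the annotated donor. Introns from the donors 4 and 70 nt downstream spanned an annotated 19-nt exon of the gene. So did an intron from the donor 9 nt downstream, with 22 and 19 reads. No read included that exon, 1650 and 1413 reads skipped it with unannotated ends and 13 and 28 between annotated sites. Whether these donors and the missing exon are linked was not tested. The leading Tnnt3 chain used the donor 70 nt downstream, with 454 and 300 reads and 19.6% and 13.4% of the gene (mean 16.5% ± 4.38, SD, n = 2). It was higher in replicate 1, by 1.94-fold in CPM.

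Gpt2, the mitochondrial alanine aminotransferase, used a donor 208 nt upstream inside its first exon. Its chain had 233 and 222 reads, 41.2% and 34.5% of the gene. The new donor had 235 and 225 reads and the nearest annotated donor 551 and 625. Together these exceed the gene's 566 and 644 reads, so some reads used both donors and no usage is given. Dctn2, a dynactin subunit, used a donor 10 nt downstream in 80.2% and 74.7% of reads. Eno3, the muscle enolase, shows the other end of the scale, with 144 and 247 reads at a donor 4 nt downstream and a usage of 1.67% and 2.42%.

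Got2, the mitochondrial aspartate aminotransferase, moved both ends of its last intron 4 nt downstream. The moved intron had 62 and 100 reads against 119 and 146 for the annotated intron, and its chain took 33.5% and 37.9% of the gene. An intron of Ptcd3 was moved by the same 4 nt, with 27 and 37 reads and none at the annotated intron. In both genes the first 4 bases of the annotated downstream exon are GTAG. A move of both ends by the same 4 nt leaves the spliced length unchanged. Whether the moved and the annotated intron give different spliced RNA was not tested.

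Among the acceptors, Hfe2, which encodes hemojuvelin, a co-receptor in iron regulation that muscle expresses, used a site 18 nt upstream. Its chain had 319 and 311 reads, or 43.8% and 38.8% of the gene, and the site a usage of 58.0% and 56.5% (mean 57.3% ± 1.08, SD, n = 2). Qk, the RNA-binding protein quaking, used a coding acceptor 24 nt downstream, a multiple of 3. Its chain had 54 and 204 reads, 50.5% and 55.9% of the gene, and the site a usage of 76.7% and 84.7% (mean 80.7% ± 5.67, SD, n = 2). In CPM the Qk chain differed by 2.95-fold between libraries.

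In 3 other abundant muscle genes, shifted acceptors had small shares of the reads. Myl1, the fast essential light chain, used an acceptor 37 nt upstream in 1.06% and 1.38% of reads, with 133 and 136 reads in the chain. Ckm, muscle creatine kinase, had a chain with an acceptor 190 nt upstream at 116 and 137 reads, or 0.143% and 0.152% of the gene. Acta1, skeletal actin, used an acceptor 23 nt upstream in 0.124% and 0.117% of reads. Acceptor shifts of 3 nt ranged more widely: Fam114a2 had a usage of 77.1% and 77.6%, Mybph, a myosin-binding protein, 34.4% and 37.8%, and Mfn2, a mitofusin, 6.02% and 5.56%.

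At some borders nearly all reads used the unannotated site. Examples picked after their values were seen are donors of Clip4, a microtubule-binding protein, 4 nt upstream with 62 and 71 reads against 0 and 2, and of Kmt5a, a histone H4 methyltransferase, 15 nt downstream with 49 and 30 reads against 0 and 0. The acceptor of Sfr1, a recombination factor, lay 144 nt upstream and had 52 and 66 reads against 0 and 0. In these 3 genes the nearest annotated site was thus read at most 2 times in a library.

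Lost short exons are annotated internal exons of up to 30 nt that an intron spans, with at least 1 of its ends moved off the annotated site. Each moved end had to lie within 30 nt of an annotated one. The members left out 46 such exons of 3 to 28 nt. Of these, 29 were not included by a read in either library, among them all 17 of up to 15 nt, 6 of 11 of 16 to 20 nt and 6 of 18 of 21 to 30 nt. Bases were added next to the skipped exon at 44 of them, and the number added was within 5 of the number lost at 28 of the 46 exons. The class limits both numbers, so part of this closeness is set by its definition. The median difference was -4.5 nt, and exactly 4 bases were added at 9 exons.

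The same lack of reads was seen in short annotated exons at large. Among annotated internal exons with 10 or more reads in each library that included or skipped them, 102 of 106 of up to 15 nt (96.2%) were included by no read, as were 31 of 55 of 16 to 20 nt (56.4%) and 55 of 362 of 21 to 30 nt (15.2%). Whether the aligner's handling of short exons has a part in the lost exons was not tested, since the aligner is not given in the sources used here.

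**Figure D4:**
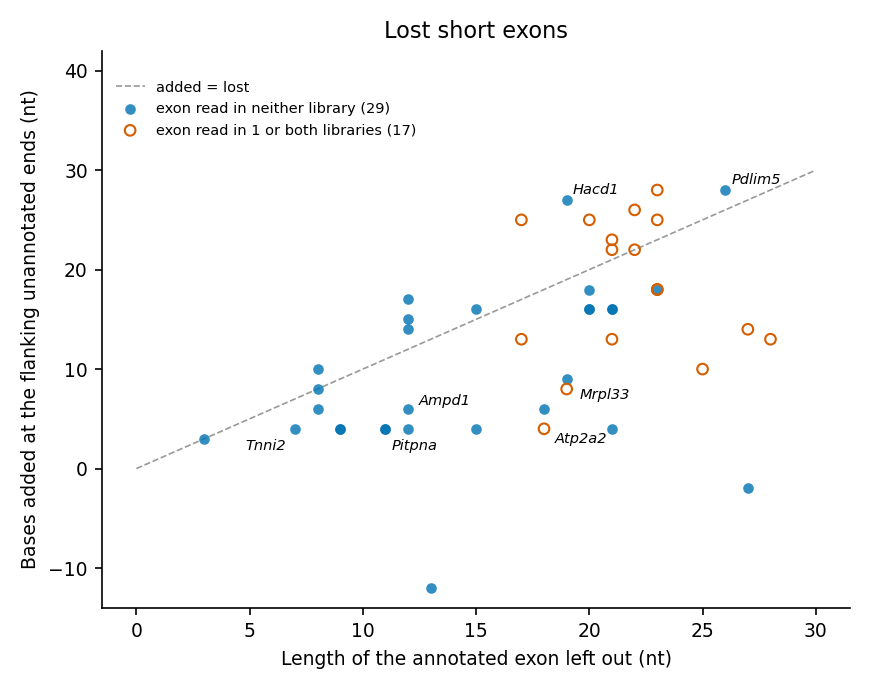
For each of the 46 annotated short exons left out, its length in nt (horizontal) and the bases added at the unannotated ends beside it (vertical), with a dashed line where both are equal. Filled points are the 29 exons read in neither library and open points the 17 with a read, and 28 points lie within 5 nt of the line. The class limits exons to 30 nt and each moved end to within 30 nt of an annotated one.

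Mrpl33, a protein of the mitochondrial ribosome, lost its 19-nt exon with 8 bases added to the exon before it. The chain had 231 and 374 reads, 97.5% and 97.4% of the gene (mean 97.4% ± 0.0513, SD, n = 2), and 1 and 3 reads included the exon. Ampd1, the muscle AMP deaminase, lost its 12-nt exon with 6 bases added. That chain had 256 and 234 reads, 72.3% and 70.3% of the gene, while 34 and 45 reads skipped the exon between annotated sites and none included it.

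Pdlim5, a PDZ and LIM domain protein of the Z-disc, lost a 26-nt exon and gained 28 bases, with 205 and 247 reads and 86.5% and 83.5% of the gene. Pitpna, a phosphatidylinositol transfer protein, lost 11 nt and gained 4, with 150 and 152 reads and 67.9% and 72.4%. Hacd1, a dehydratase of fatty acid elongation needed in muscle, lost 19 nt and gained 27, with 150 and 117 reads and 94.9% and 88.6%. None of these 3 exons was included by a read. In each of these 5 genes the member was the leading structure in both libraries.

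Unannotated ends were not always the main way an exon was skipped. Tnni2 is the fast troponin I. Its 7-nt exon was included by none of its reads, 5362 and 3583 reads skipped it between annotated sites and 211 and 150 skipped it with unannotated ends, or 3.79% and 4.02%. Atp2a2, the calcium pump of slow fibres, included its 18-nt exon in 255 and 1024 reads, and 10 and 58 reads lost it. Tnni2 and Atp2a2 were named after their values were seen.

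New internal exons overlap no annotated exon of the gene. The members held 147 such exons, after setting aside 6 that are exons of a neighbouring gene, in 132 genes. They were 23 to 393 nt long with a median of 93 nt. The median new exon was included in 11.1% and 8.54% of the reads that spanned it. Inclusion was over 50% in both libraries for 34 exons and under 5% in both for 55.

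The share of lengths that are a multiple of 3 was higher for new coding exons than for annotated exons of their genes. In the coding span 59 of 107 new exons (55.1%, 45.7 to 64.2) had such a length, against 480 of 1247 annotated internal exons of the same genes (38.5%, 35.8 to 41.2). The median inclusion was 18.3% for the frame-keeping ones and 3.49% for the others. Of the 54 coding exons included at 10% or more, 37 were a multiple of 3.

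**Figure D5:**
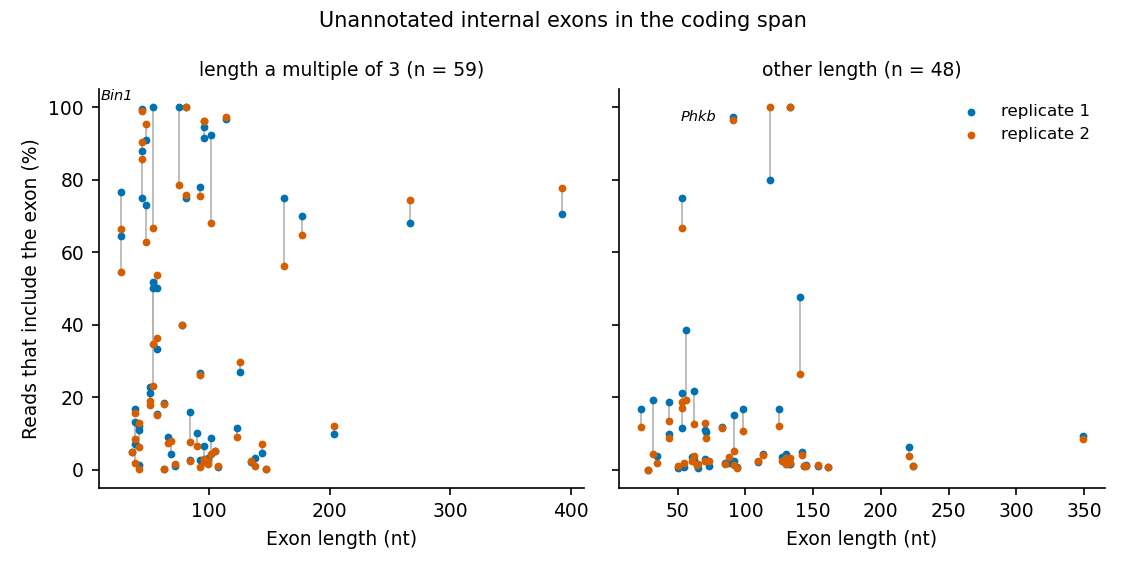
Inclusion in percent of spanning reads against exon length in nt for the 107 new internal exons in coding spans, split into lengths that are a multiple of 3 (59, left) and others (48, right), with 1 point per library joined by a line. More of the points above 50% lie in the left panel, and Phkb is a well included exon in the right one.

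Phkb, the regulatory beta subunit of phosphorylase kinase, gained a 91-nt exon at chr8:86025198-86025288. The chain had 238 and 326 reads, 78.8% and 78.6% of the gene (mean 78.7% ± 0.179, SD, n = 2), and the exon was included in 97.3% and 96.4% of spanning reads. Its length is not a multiple of 3.

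Bin1, which shapes the transverse tubules of muscle, gained a 45-nt exon at chr18:32423242-32423286. The exon was in 741 and 815 reads, 99.6% and 98.9% of those that spanned it (mean 99.3% ± 0.487, SD, n = 2). The most read chain with it had 191 and 222 reads, or 25.4% and 26.3% of the gene, and the other reads with the exon were in chains outside the members.

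Tmem65 gained an 81-nt exon at chr15:58807078-58807158, included in 74.8% and 75.9% of reads (mean 75.4% ± 0.752, SD, n = 2). Its chain had 116 and 283 reads, 71.6% and 72.8% of the gene, so its CPM differed by 1.91-fold between libraries while its share of the gene stayed close. Usp25, a deubiquitinase, gained exons of 114 and 96 nt in 1 chain of 51 and 67 reads. Those exons were included in 96.8% and 97.3%, and in 94.6% and 96.3%, of reads.

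Other well included exons, picked after their values were seen, were in Ywhae, a 14-3-3 protein (45 nt, 88.0% and 90.4%), in Ppp3cb, a calcineurin catalytic subunit (27 nt, 76.5% and 66.3%), and in Pxn, the focal adhesion protein paxillin (393 nt, 70.6% and 77.6%). Ccpg1 gained exons of 96 nt, at 91.6% and 96.3%, and of 27 nt, at 64.5% and 54.6%. Prkca, a protein kinase C, gained one of 48 nt at 73.1% and 62.8%. By contrast a 70-nt exon of Tmem38a, a potassium channel of the sarcoplasmic reticulum, was in 2.91% and 2.51% of reads.

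The model starts of new first exons differed more between libraries than those of other members. Counting the combined chains, 201 members had one, and their model starts differed by a median of 9 nt between libraries, with 103 (51.2%, 44.4 to 58.1) within 10 nt. Of the 989 other members in annotated genes, 826 (83.5%, 81.1 to 85.7) started within 10 nt. A RefSeq start lay within 50 nt of 8 of the 201 (3.98%, 2.03 to 7.66) and of 587 of the 989 (59.4%, 56.3 to 62.4). A first exon was classed as new only if it overlapped no annotated exon of the gene. The class itself thus leaves out most annotated starts, and the RefSeq contrast is no separate result. The starts compared between libraries are those of models, not of single reads. Whether annotated starts have a part in how closely the models matched was not tested.

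A new first exon joined to an annotated acceptor was found 148 times. Its median usage among reads at that acceptor was 6.43%, and 29 of them were over 50% in both libraries. Park7, the antioxidant protein DJ-1, had 95 and 107 reads and 11.2% and 13.2% of the gene from a first exon of 166 nt. Slc41a3, a magnesium transporter, had 74 and 64 reads from a 121-nt first exon, 48.7% and 28.7% of the gene, and the exon took 94.6% and 98.7% of the reads at its acceptor.

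Tsc22d3, a glucocorticoid-induced leucine zipper protein, had 56 and 59 reads and 18.4% and 17.9% of the gene from a 290-nt first exon, which took 53.9% and 53.1% of reads at the acceptor. Ak1, adenylate kinase, had 57 and 54 reads but only 0.952% and 0.811% of its gene. In Slc41a3 and Tsc22d3 the new first exon was the main partner of its acceptor in both libraries.

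Further first exons led at their acceptor, and these genes were picked after their values were seen. Pik3ca, a phosphoinositide 3-kinase subunit, had 12 and 45 reads from the new exon and none from another. Its model starts lay 2 and 48 nt upstream of a RefSeq start, so that exon is new to GENCODE but holds a RefSeq start. Rps6ka2, a ribosomal S6 kinase, had 22 and 64 reads, or 95.7% and 92.8%, and Sbk1, a serine/threonine kinase, 15 and 48, or 79.0% and 88.9%. Nr4a1, an orphan nuclear receptor, had 41 and 48 reads, or 73.2% and 75.0%, and Esrrg 6 and 38, against 4 and 13 from other exons.

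In 73 chains of 44 genes an exon stood in front of an annotated first exon, with 6066 and 9129 reads, and 42 of these had a new first exon. Most of those reads are Myh4's. New last exons were the only change in 12 chains, with 44 and 57 reads in all. Combined chains included, there were 31 distinct new last exons with 286 and 454 reads. The 12 of them joined to an annotated donor had 53 and 72 reads and a median usage of 12.5%. The others follow a donor that is itself unannotated, so their usage cannot be read the same way. Rnf130, a ubiquitin ligase, had 8 and 9, Pgm1, a phosphoglucomutase, 7 and 10, Trdn, the calcium-release protein triadin, 5 and 7, and 3110040N11Rik 4 and 7. None of the 12 chains with this change alone was the leading structure of its gene.

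A new intron inside an annotated exon was found at 66 places, of 39 to 3652 nt. Both ends could be read in 61, and 49 of these were GT-AG, 9 GC-AG and 3 neither. At 10 introns the bases at both ends repeat each other over 8 nt or more, and at 45 over 0 to 3 nt. In Gpd2, the mitochondrial glycerol-3-phosphate dehydrogenase, an intron of 1989 nt was removed in 91.2% and 90.0% of reads (mean 90.6% ± 0.835, SD, n = 2). Its chain had 170 and 208 reads, 67.7% and 70.8% of the gene.

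Of the 66 introns, 26 lay 3′ of the coding span. B230219D22Rik had an intron of 174 nt in 54.6% and 54.9% of reads, with 18 and 27 reads in the chain. Fitm2, a lipid droplet protein, had introns of 462 nt, with 12 and 32 reads in the more read chain, 18.2% and 25.0% of the gene.

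Chains of several kinds were mostly a shifted acceptor with a shifted donor (41) or a new first exon with a shifted acceptor (39). Gpcpd1, a glycerophosphocholine phosphodiesterase abundant in muscle, and Uso1, a vesicle tether, both had a 21-nt exon inside a longer annotated exon, shown above. The Gpcpd1 chain had 143 and 179 reads, 60.6% and 55.9% of the gene, and the Uso1 chain 59 and 89 reads, 78.7% and 76.7%. Each was the leading structure of its gene.

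Some chains joined neighbouring genes. In 15 chains an exon counted as new was an annotated exon of another gene, such as Mrps23 in Cuedc1 chains with 4 and 3 and with 2 and 3 reads, Ndufa13 in Yjefn3 with 2 and 3, and Inafm1 in Ccdc9 with 2 and 2. Pfn1, the actin-binding protein profilin, was joined to Gm12319 in 13 and 20 reads. Ighm chains with exons annotated as Gm24022 or Gm25747 were also among the 15, the most read with 17 and 14 reads. The chains of Cuedc1, Yjefn3 and Ccdc9 were near the minimum that chose them. The 2 members that TALON gave to another gene in replicate 2 lie at Pkm and Parp6.

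Dinucleotides at the new sites were read where annotated transcripts cover the intron's end, and the rule did not use them. GT followed 276 of 314 readable new donors (87.9%, 83.8 to 91.1) and GC another 36, and AG preceded 399 of 406 readable new acceptors (98.3%, 96.5 to 99.2). In the longest annotated transcript of each host gene GT makes up 5.35% of all dinucleotides, GC 6.26% and AG 7.82%. Class chains with 1 read in 1 library were close, with GT at 86.8% of donors and AG at 96.7% of acceptors. The shares thus do not set the members apart from chains read once. Whether the aligner, which is not given, favoured such bases when placing introns was not tested. Of 575 members whose new ends could all be read, 534 (92.9%, 90.5 to 94.7) had GT and AG throughout.

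The share of genes with a member was larger at higher depth. Of 4293 genes with 50 or more summed reads, 700 (16.3%) held a member: 9.76% of those under 200 reads, 24.7% of those with 200 or more but under 1000, and 52.0% of those with 1000 or more. At 1000 or more reads, members were in 20 of 29 sarcomere genes, 14 of 16 glycolysis and glycogen genes, 22 of 38 mitochondrial genes and 5 of 10 genes of calcium handling and excitation. Over all depths they were in 28 of 51, 17 of 23, 25 of 52 and 11 of 34. Of 35 splicing regulators with reads, 3 held a member: Rbfox1, Rbm24 and Hnrnph1. None of the regulators reached 1000 reads. A member was in 1 of 16 with 50 to 199 reads, beside 9.76% of all genes. At 200 to 999 reads it was 1 of 7, beside 24.7%.

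The genes with the most members were Ckm with 18 chains (280 and 309 reads), Ighm with 17 (149 and 157), Myh4 with 13, Actn3, the fast-fibre alpha-actinin, with 11 (214 and 196), and Acta1 with 11 (156 and 181). Ighm, the immunoglobulin mu heavy chain, is the only one of these that is not a muscle gene. All 17 Ighm chains used the same acceptor 426 nt upstream of the nearest annotated one, at 204 and 194 reads. The leukocyte markers had 1 and 2 reads beside them, and what cells the Ighm reads came from was not tested.

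Most members with 20 or more summed reads were within 2-fold between the libraries. Of the 258 members with 20 or more summed reads, 45 (17.4%, 13.3 to 22.5) were over 2-fold apart in CPM, beside 11.5% of all 7190 spliced chains matched in the same way. Higher in replicate 2 were 28 members, beside 8.71% of all chains, and higher in replicate 1 were 17, beside 2.77%. The median log2 ratio was -0.06 for the members and 0.09 for all chains. At 50 or more summed reads, 8.60% of members and 7.12% of all chains were over 2-fold apart. At 10 or more, the shares were 21.3% and 17.0%. With 1 library a side there is no replicate check, and counting error is larger for members with few reads.

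The chains furthest apart are given with their reads. Higher in replicate 2 were Nnt, the mitochondrial transhydrogenase (3 and 26), Esrrg, an orphan nuclear receptor (6 and 38), and Cdc14a, a phosphatase (3 and 19). Higher in replicate 1 were a new first exon of Pgm1 (29 and 3), a 53-nt exon of Rbfox1, a splicing regulator (25 and 8), and a new first exon of Mybpc2, the fast myosin-binding protein C (18 and 7). As a share of its gene the Rbfox1 chain had 36.8% and 38.1%, so there the gene's reads moved with the chain. In Pgm1 the share was 1.73% and 0.183%.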

How the data were processed

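Long-read RNA libraries of 2 muscle samples were compared as 1 group. Per the file headers and the deposited notes, the authors assigned reads to transcript models with TALON against GENCODE M21 on mm10, 1 library at a time, and deposited raw read counts per model with model coordinates. For the aligner, the software versions and any filter the entry is: not given in the sources used here. The members and gene lists were chosen with earlier results of these data known.

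From the deposited counts, models were merged by chromosome, strand and intron chain, and a minimum of 2 reads was required in each library. Each unannotated site was classed against the gene's annotated sites, with short exons defined as up to 30 nt. For a lost short exon the unannotated ends had to lie within 30 nt of annotated ones. Classing was tested on simulated data. Shares carry Wilson intervals and, over libraries, mean ± SD. CPM values use endogenous reads, and spike-ins were left out by chromosome. Bases came from GENCODE M21 transcripts and, for Myh4, from RefSeq promoters on GRCm38.p6. A genome sequence was not used here, so many intron ends could not be read.

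Chains named in the text are the 10 most read, the 4 most read of each kind, up to 15 that lead their gene, the 3 most read shifted sites of each size, and the 3 furthest apart between libraries in each direction with 20 or more reads. Others are said to be chosen after their values were seen, or stand in lists by count. One gene that the rule selects is not reported here. The chains in no annotated gene are not named, as the files give them identifiers of 1 library. No p-value is given, since there is 1 group. Python 3.11.15, pandas 2.3.3, numpy 2.4.6, scipy 1.17.1 and matplotlib 3.10.9 were used.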

Additional observations from a re-analysis of the deposited data

How the results depend on the processing

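The number of members depended on the read minimum: it was 3171 at 1 read in each library, 759 at 3, 430 at 5 and 211 at 10, and 2517 to 3486 when either replicate was left out. With Atp2a1 kept it was 1241, and with replicate 2 thinned to the depth of replicate 1 it was 1076. At a minimum of 5 reads the kinds held 99 shifted donors, 111 shifted acceptors, 57 new first exons, 3 new last exons, 49 new internal exons, 25 new introns inside an exon, 28 lost short exons, 56 chains of several kinds and 2 in no annotated gene. With either replicate left out (chosen after seeing the data) these were 720 to 1001, 724 to 1036, 246 to 340, 38 to 58, 263 to 355, 123 to 146, 77 to 93, 303 to 427 and 23 to 30. A short-exon limit of 20 nt left 27 lost short exons, and classing each chain by its first site left 0 of several kinds by construction. Of 72 counts by kind under alternatives, 43 were within 1.5 times the value reported.

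The share of chains with GT and AG throughout was 98.96% with GC-AG and AT-AC also counted, and 93.43% to 93.64% with either replicate left out. The share of shifts by a multiple of 3 was 38.98% to 41.0% in that case. Members over 2-fold apart were 8.60% of those with 50 or more summed reads, beside 7.12% of all chains. The median share of the gene, 3.16% over both libraries, was 3.66% without incomplete splice matches and 2.92% to 3.40% with either replicate left out.

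Depth limits what can be said of most members, since the median has 9 summed reads. The sequence shares cover only sites inside annotated exons. No paired analysis was possible because there is a single group.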
